A study of Aspergillus niger with 6 samples.

Results

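The proteasome is the large protease that breaks down proteins marked with ubiquitin. Its genes were compared between a strain of the filamentous fungus Aspergillus niger that lacks rpnR and the control strain MA234.1. The series' title calls rpnR a predicted transcription factor under FlbA regulation. Members were the rows of the deposited table whose KEGG product name holds the word proteasome, which gave 35 of 11910 genes. They name 33 subunits or factors: 14 subunits of the 20S core, 6 RPT ATPases (8 rows), 11 RPN subunits, 1 activator and 1 maturation factor. Per the labels, RNA came from mycelium of liquid shaken cultures grown for 16 h on 1% glucose and then for 4 h on 25 mM xylose, at 30 °C throughout, so both strains shared medium, times and temperature. The labels list 3 libraries per strain, whereas the design text mentions duplicates. No other allele of either strain is stated in the sources used here.

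The 20S core is a barrel of stacked rings. The outer rings are built of alpha subunits, which gate the entrance, and the inner rings of beta subunits, some of which carry the proteolytic sites. A regulatory particle caps the barrel: its ring of RPT ATPases unfolds the substrate and threads it into the core, and its RPN subunits bind ubiquitin, remove it and hold the particle together. In the yeast Saccharomyces cerevisiae, proteasome genes are known to be expressed in concert under a shared activator.

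The deposited values are 1 FPKM per gene and strain (fragments per transcript length and sequenced total), so no error, standard deviation or n can be given for any value, and sequencing depth is unknown. Genes with a q-value below 0.05 in the authors' deposited table were called changed. Ratios between strains put the deletion strain over the control and were taken as log2 of FPKM + 1, so changes of low genes are understated. The values are relative levels in the RNA of whole mycelium, in which more RNA per cell and more expressing cells cannot be told apart. No row was named rpnR or held the digits that the sample titles give, and the deletion was therefore not checked through its own gene.

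One proteasome gene of 35 changed, against 6.54% of the 9234 tested genes (604), and it was not among the abundant subunits. It was protein 1187592, a second row under the KEGG product name of RPT2, an ATPase of the base. This row rose from 3.57 to 14.4 FPKM, and whether its product is a proteasome subunit was not tested. The other 34 had higher values in the deletion strain too, by small and similar amounts. These depended on the scaling. With both strains set to the same sum over all genes, 31 of the 35 members lay above the control. With both set to the same sum without ribosomal protein genes, 12 of the 34 lay below it. None of the 34 passed the authors' test, with q-values from 0.678 upwards in the authors' deposited table. All 35 members were tested by the authors. Over the members the median log2 ratio was 0.25, beside 0.02 over all tested genes, of which 51.3% lay above the control. Of all FPKM the members made up 0.499% in the control, against 0.560% without rpnR. Shares of 1 total depend on each other, and that of the cytosolic ribosomal protein genes went from 11.4% to 3.63%.

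**Figure D1:**
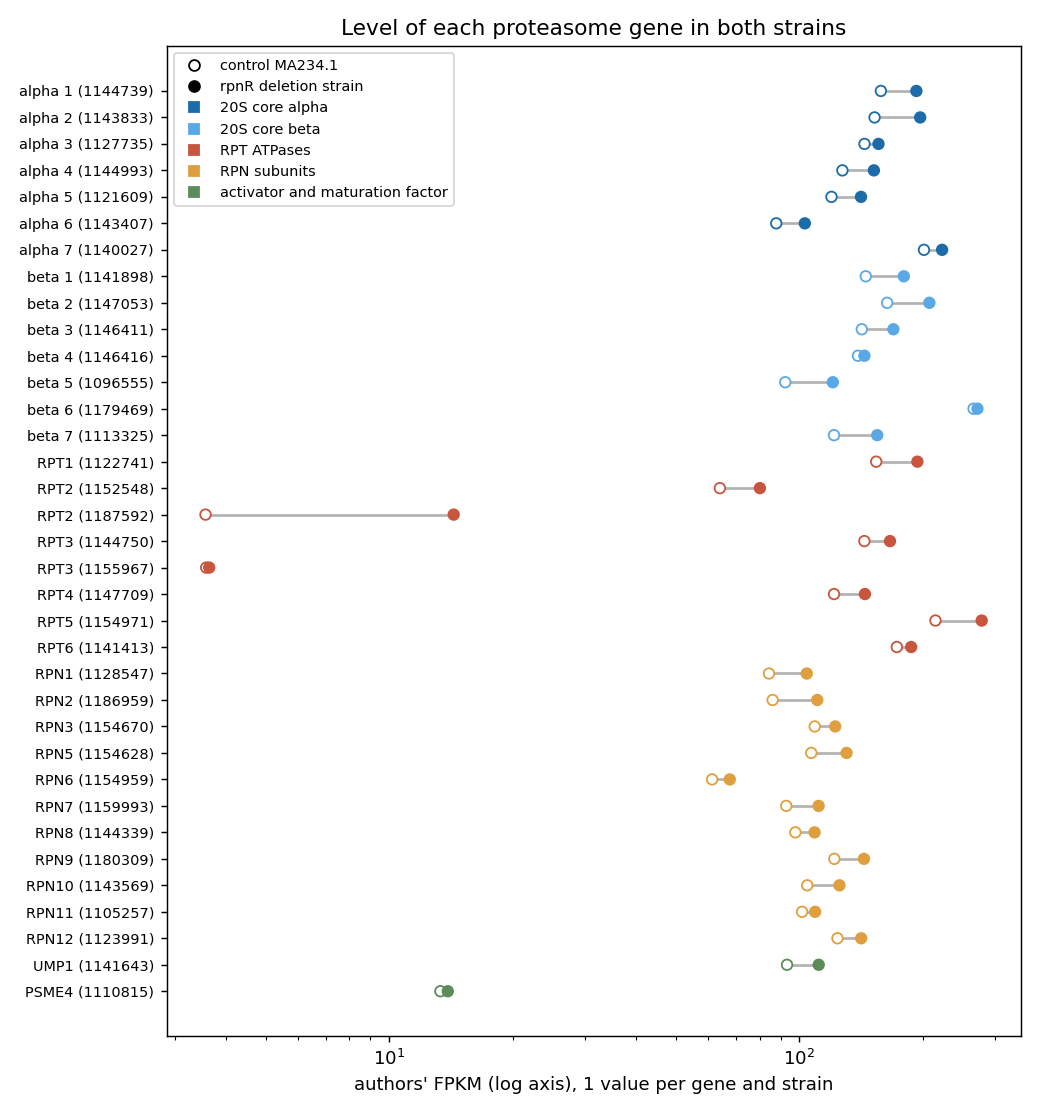
Level of each of the 35 proteasome genes as the authors' FPKM (log axis), with the control as open and the deletion strain as filled circles, coloured by group, 1 value per gene and strain. All filled circles lie to the right of the open ones, mostly by little, and protein 1187592 moves from 3.57 to 14.4 FPKM. For 12 genes the order turns when both strains are set to the same sum without ribosomal protein genes.

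The alpha subunits of the core form the outer rings and control access to the chamber. None of 7 was called, and their log2 ratios ran from 0.11 to 0.37 with a median of 0.24. Alpha 1 (PSMA6, 1144739) was at 158 FPKM in the control and at 193 FPKM without rpnR, the order in which all pairs of values follow. Alpha 2 (PSMA2, 1143833), with the highest ratio of the ring, was at 153 and 197 FPKM. Alpha 3 (PSMA4, 1127735) was at 144 and 156 FPKM. This last subunit, whose tail in yeast closes the gate of the free core, had the lowest ratio of the 7. Alpha 4 (PSMA7, 1144993) was at 127 and 152 FPKM, and alpha 5 (PSMA5, 1121609) at 119.8 and 141 FPKM. Alpha 6 (PSMA1, 1143407) was the least abundant of the core, at 87.9 and 103 FPKM. Alpha 7 (PSMA3, 1140027) was the most abundant alpha subunit, at 201 and 223 FPKM. In the authors' deposited table their q-values started at 0.712.

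The beta subunits line the chamber, and 3 of them, beta 1, beta 2 and beta 5, are the proteolytic subunits that cut after acidic, basic and hydrophobic residues. None of 7 was called, with a median log2 ratio of 0.31 and a range from 0.03 to 0.38. Beta 1 (PSMB6, 1141898) was at 145 and 179.8 FPKM. Beta 2 (PSMB7, 1147053) was at 164 and 208 FPKM. Beta 5 (PSMB5, 1096555) was the lowest beta subunit in both strains, at 92.4 and 121 FPKM. It had the highest ratio of all members but 1187592, 1.31 times the control, and the lowest q of the core in the authors' deposited table (0.678).

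The other 4 beta subunits are structural and differed more among themselves. Beta 3 (PSMB3, 1146411) was at 142 and 169.5 FPKM, and beta 7 (PSMB4, 1113325) at 122 and 155 FPKM. Beta 4 (PSMB2, 1146416) was at 139 and 144 FPKM. Beta 6 (PSMB1, 1179469), the most abundant core subunit in both strains, was at 266 and 272 FPKM. Beta 4 and beta 6 were thus the core subunits closest to the control, at log2 ratios of 0.05 and 0.03. Split by function, a grouping made after the values were seen, the 3 proteolytic subunits had ratios from 0.31 to 0.38 and the 4 others from 0.03 to 0.35. The ranges overlap through beta 7, and the difference was not tested. The q of beta 7 in the authors' deposited table was 0.906, above that of beta 2 (0.751) at nearly the same ratio (1.27 times the control for each).

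Within the core the levels lay close together, as FPKM scaled by length allows them to be compared. The highest was 3.03 times the lowest in the control and 2.64 times in the deletion strain. The order of the 14 levels was nearly the same in both strains (Spearman's rho 0.97 across genes, which are not independent replicates and share the same libraries).

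The RPT ATPases form the ring that unfolds substrates. Each of the 6 subunits had 1 abundant row, and none of these was called. RPT1 (1122741) was at 154 and 194 FPKM. RPT2 (1152548), whose tail in yeast opens the gate of the core, was at 64.0 and 80.1 FPKM and was the lowest of the 6. RPT3 (1144750) was at 144 and 166 FPKM. RPT4 (1147709) was at 122 and 145 FPKM, RPT6 (1141413) at 173 and 187 FPKM. RPT5 (1154971) was the most abundant, at 215 and 278 FPKM, and in the deletion strain it exceeded every core subunit. The 6 ratios ran from 0.12 to 0.37 on the log2 scale with a median of 0.28, and in the authors' deposited table their q-values started at 0.710.

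RPT2 and RPT3 each had a second row at a far lower level, and these second rows differed from each other. Protein 1187592, annotated as RPT2, was 4.03 times higher in the deletion strain, a log2 ratio of 1.75, with a q of 0.00483 in the authors' deposited table. Its abundant namesake 1152548 stood at 1.25 times the control with a q of 0.775. Even after its rise, 1187592 at 14.4 FPKM stayed far below the 80.1 FPKM of 1152548. It carries the AAA ATPase domain as its sole Pfam domain, whereas 1152548 also carries WD40 repeats, which are otherwise not part of RPT annotations in the table. FPKM are scaled by transcript length, and whether the gene model of 1152548 affects its level was not tested. Protein 1155967, annotated as RPT3, stood at 3.58 and 3.64 FPKM, uncalled (log2 ratio 0.02). It carries a DUF3425 domain beside the AAA domain, and the table places it in secondary metabolism cluster 7. None of the 8 tested genes of that cluster was called (12 rows in all), with a lowest q of 0.809 in the authors' deposited table and no unadjusted p under 0.05 by the bound derived from the q-values. Whether the products of these second rows enter proteasomes, and whether reads were shared between rows of the same name, was not tested.

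Because 1187592 is known here by its AAA domain, all rows with that domain were listed, grouped with the values already known. The list of 56 rows holds 1187592 itself and the other RPT rows, and 53 of them were tested. Counting 1187592, which was already known to be called, 4 rose and 1 fell, and the median log2 ratio was 0.04. Over all tested genes, 3.29% were called higher and 3.25% lower. The other risers were 1116809 (7.07 FPKM in the control, 29.2 without rpnR), 1157820 (3.18 against 14.9 FPKM) and 1091078 (13.4 against 39.6 FPKM). None of these 3 has a KEGG product. The one that fell, 1166045, has a BCS1-type domain and went from 3.17 FPKM to a listed 0. None of the 7 other RPT rows was called.

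The RPN subunits showed no call among 11, with log2 ratios from 0.10 to 0.36 and a median of 0.24. RPN1 (1128547), a scaffold that receives substrate shuttles, was at 84.3 and 104 FPKM. RPN2 (1186959), the other large scaffold of the base, was at 86.1 and 111 FPKM and had the highest ratio of the group, 1.28 times the control. RPN10 (1143569), a receptor for ubiquitin chains, was at 104.5 and 125 FPKM. These 3 all lay at or above the median ratio of the members, as did RPN5 and RPN7, given below.

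The lid of the particle is built of subunits with a PCI or an MPN domain. Among the PCI subunits, which assemble the lid's horseshoe, RPN3 (1154670) was at 109 and 122 FPKM and RPN5 (1154628) at 107 and 130.4 FPKM. RPN6 (1154959), a clamp between lid and core, was the lowest RPN subunit, at 61.3 and 67.7 FPKM. RPN7 (1159993) was at 92.9 and 111 FPKM. RPN9 (1180309) and RPN12 (1123991) were the most abundant of the group. RPN9 was at 122 and 144 FPKM, and RPN12 at 124 and 142 FPKM. The 6 ratios of the PCI subunits had a median of 0.21 on the log2 scale.

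RPN11 (1105257) is the metalloprotease that cuts ubiquitin chains off the substrate, and RPN8 (1144339) is its partner without activity. RPN11 was at 102 and 109 FPKM, the lowest ratio of the RPN subunits (1.08 times the control). RPN8 was at 97.8 and 109 FPKM. The levels of the pair were thus nearly equal in each strain. Across all RPN subunits the highest level was 2.02 times the lowest in the control and 2.12 times in the deletion strain.

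Outside the core and the cap were 1 maturation factor and 1 activator. UMP1 (1141643), the maturation factor that guides assembly of the core and is its first substrate, was at 93.3 and 111 FPKM. Its ratio, 1.19 times the control, was close to the median of the members. PSME4 (1110815), the activator known in yeast as Blm10, was at 13.3 and 13.9 FPKM. It was thus several times less abundant than any core subunit, and its ratio was 1.04. Neither was called (lowest q 0.840 in the authors' deposited table).

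**Figure D2:**
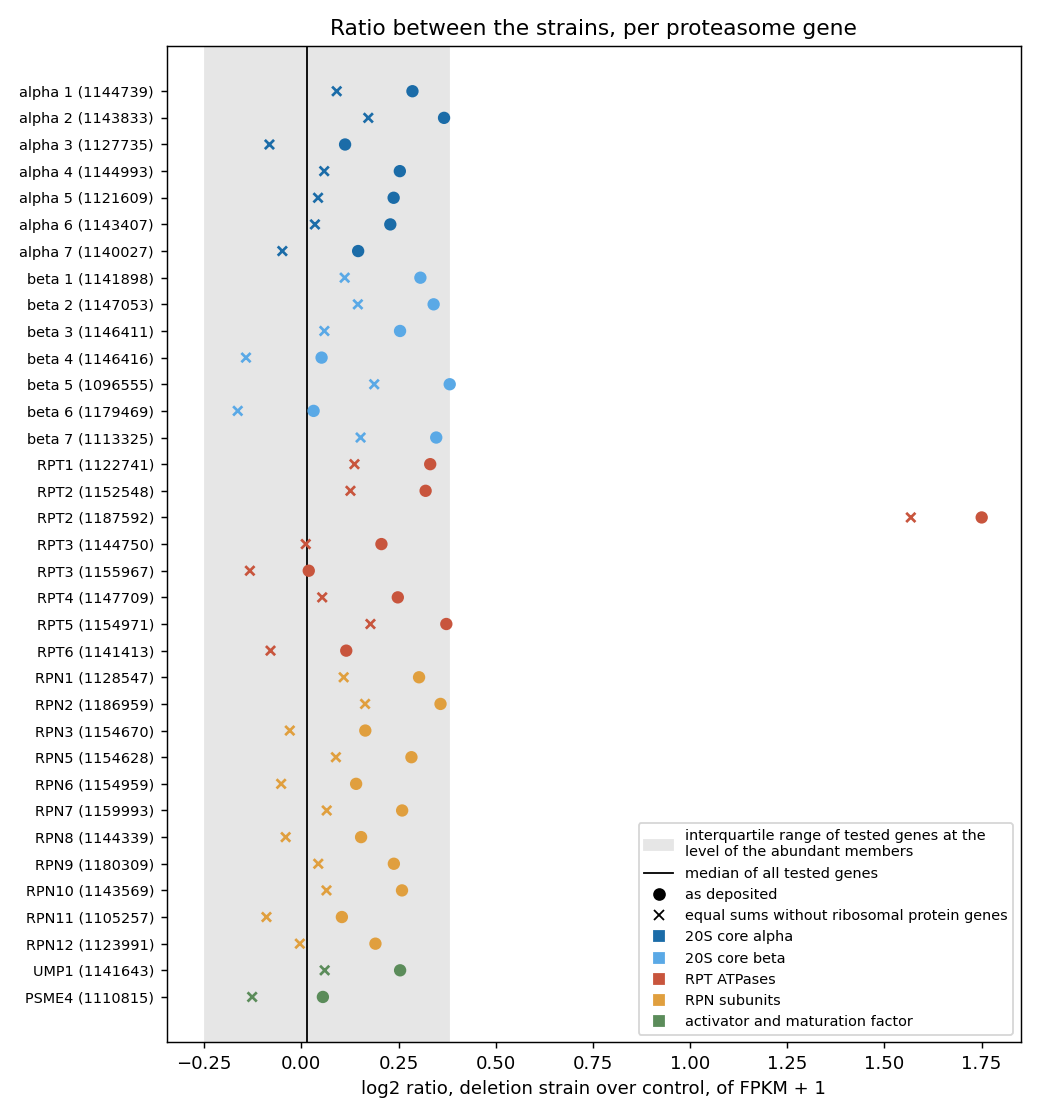
Log2 ratio of deletion strain over control for each of the 35 genes (circles: as deposited; crosses: with both strains set to the same summed FPKM without ribosomal protein genes), beside the median of all tested genes (line) and the interquartile range of the tested genes at the level of the abundant members (grey, from -0.25 to 0.38). Apart from 1187592 at 1.75, the circles lie between 0.02 and 0.38, and the crosses fall on either side of 0.

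The abundant members also varied little among themselves in ratio. The 32 members whose mean FPKM reached 50 had an SD of 0.10 across genes in the log2 ratio, and the interquartile range ran from 0.16 to 0.31. The 1352 tested genes within the same range of mean FPKM had an SD of 0.75 and an interquartile range from -0.25 to 0.38. Of those genes, 56.8% lay above the control, their median log2 ratio was 0.07, and 7.47% were called. None of the 32 abundant members was called, and none had an unadjusted p under 0.05 by the bound derived from the authors' q-values, beside 19.4% of the 1352 genes. In level, these 32 lay between percentiles 79.4 and 94.1 of the tested genes. PSME4 stood at percentile 42.7, and the second rows of RPT2 and RPT3 at percentiles 32.1 and 15.6.

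**Figure D3:**
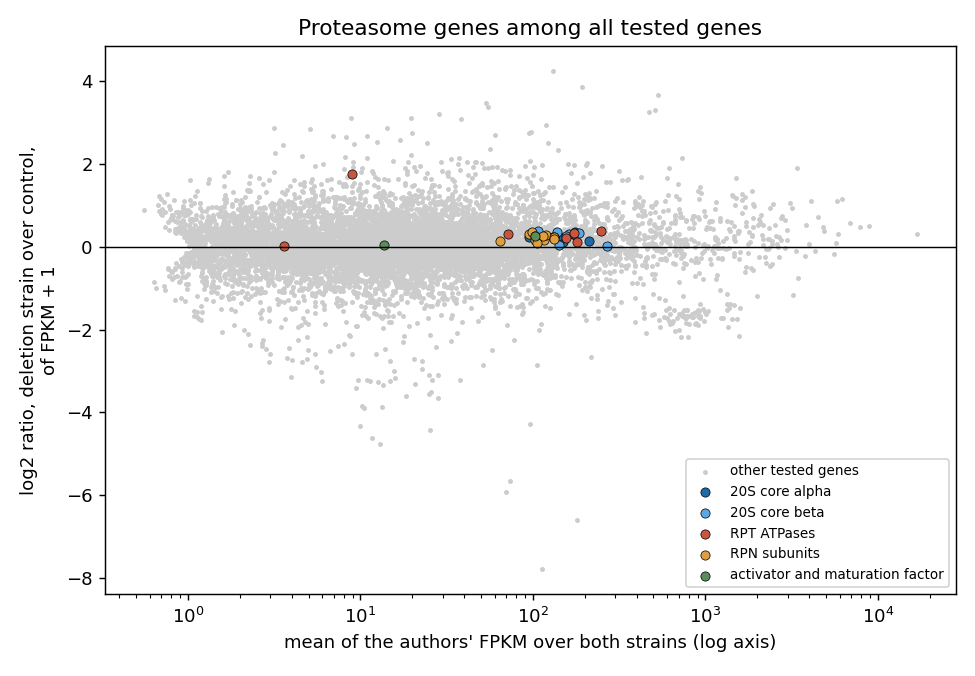
Log2 ratio of deletion strain over control against mean FPKM (log axis) for the 9234 tested genes (grey) and the 35 proteasome genes, coloured by group. The 32 abundant members form a narrow band just above 0 between means of 64.5 and 269 FPKM, and the called RPT2 row 1187592 stands apart at a mean of 8.97 FPKM.

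FPKM are relative values, and their makeup was not the same in both strains. The deposited columns do not have a common sum: they added up to 828095 FPKM in the control and to 872090 FPKM without rpnR. Genes for cytosolic ribosomal proteins (77, eukaryotic type) made up 11.4% of all FPKM in the control but 3.63% without rpnR. With both strains set to the same sum over all genes, 31 of the 35 members lay above the control and their median log2 ratio was 0.18. With both set to the same sum without those ribosomal genes, 23 of 35 lay above and the median was 0.06. That scaling moved the median of all tested genes to -0.16, and 37.0% of them then lay above the control. As deposited, the members' median stood 0.24 above that of all tested genes; 1 factor applied to all genes of a strain leaves this gap as it is apart from the pseudocount, so the scalings do not bear on it. Values above the control are therefore a statement about relative mRNA levels, and how many members lie above it depends on the scaling. The part that ribosomal mRNA plays in these values was not tested.

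With equal sums without the ribosomal genes, 12 members lay below the control. From the core these were alpha 3, alpha 7, beta 4 and beta 6. Among the RPT and RPN rows they were RPT6, the second RPT3 row, RPN3, RPN6, RPN8, RPN11 and RPN12, and the last was PSME4. The 12 are the members with the lowest ratios as deposited, since the scaling lowers every ratio by about the same amount. The called row 1187592 stood at 1.57. With equal sums over all genes, beta 4, beta 6, the second RPT3 row and PSME4 already lay below the control.

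**Figure D4:**
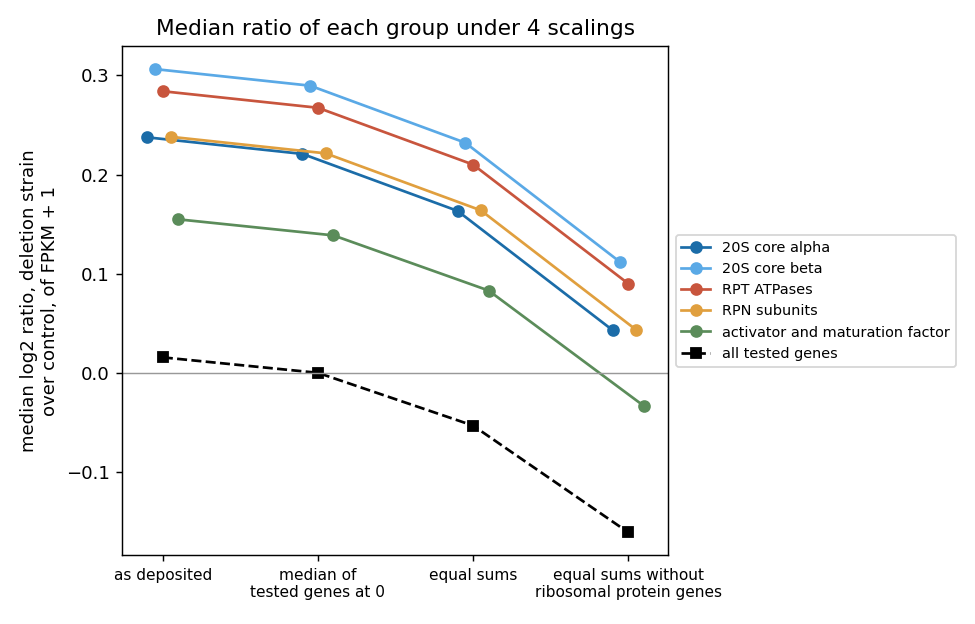
Median log2 ratio of deletion strain over control for each group of proteasome genes (coloured lines) and for all tested genes (black, dashed) under 4 scalings, with groups set slightly apart along the x axis. All lines drop together; the activator and maturation factor end at -0.03 and all tested genes at -0.16.

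The annotations that the choice of members did not use fit the groups by structure. All 14 core subunits carry the Pfam Proteasome domain and the threonine peptidase family T01, and no other row of the table carries either. All 7 alpha subunits and no beta subunit carry the alpha-type amino-terminal domain. All 8 RPT rows carry an AAA domain, 6 RPN subunits a PCI domain, and RPN8 and RPN11 the JAB domain with peptidase family M67. None of the 35 has a predicted secretion signal or a transmembrane domain.

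Proteins tied to the proteasome but without a proteasome KEGG product did not all lie above the control. By annotation text these were RAD23 (204514), which carries ubiquitinated proteins to the proteasome, at 133 and 141 FPKM, and a Cut8 domain protein (1137991), which in fission yeast tethers proteasomes to the nucleus, at 82.0 and 72.6 FPKM. By Pfam domain, looked up after the values were seen, an RPN13 domain protein (1188690), a ubiquitin receptor, was at 108 and 123 FPKM. A SEM1 domain protein (1147904), a small lid subunit that in yeast also serves other complexes, was at 72.9 and 69.1 FPKM. An ECM29 domain protein (1096805), a proteasome-binding protein in yeast, was at 14.7 and 21.1 FPKM. None of these 5 was called, with q-values from 0.499 upwards in the authors' deposited table.

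Upstream of the proteasome, proteins are tagged by ubiquitin through E1, E2 and E3 enzymes. The activating enzyme UBA1 (1151133), an E1, was at 74.6 and 89.2 FPKM and its q in the authors' deposited table was 0.864, so it was not called. Of 21 genes for E2 enzymes, which pass ubiquitin on, 20 were tested and none was called, 12 lay above the control, and the median log2 ratio was 0.20. The most abundant were UBC4/UBC5 (1037290) at 1086 and 1228 FPKM and UBC6 (182049) at 194 and 227 FPKM. No gene of 29 for E3 ligases and their cullin-RING subunits was called, with 13 above the control and a median of -0.02. SKP1 (1145392), the adaptor of F-box proteins, was at 245 and 382 FPKM, and RBX1 (1076118), the RING subunit, at 247 and 244 FPKM. Counted without adjustment, 2 of the 20 E2 genes and 1 of the 29 E3 genes had a p under 0.05 by the bound derived from the authors' q-values, beside 18.1% of all tested genes.

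Of 4 deubiquitinases, 1 fell, a USP7-type hydrolase (1185781) that went from 22.0 to 9.82 FPKM. Over all tested genes, 3.25% were called lower and 3.29% higher. None of the 5 genes for CDC48 and the shuttle factors, which extract and deliver substrates, was called or had an unadjusted p under 0.05 by that bound, and all 5 lay above the control (median log2 ratio 0.28). Of these, CDC48 (1111182) was at 396 and 480 FPKM and DSK2 (1160851) at 188 and 224 FPKM. Without the ribosomal genes in the sum, 4 of the 5 lay above the control and their median was 0.08. No product name in the table held COP9, so the COP9 signalosome is not analysed here.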

How the data were processed

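RNA of 6 libraries, 3 per strain per the labels, was sequenced on an Illumina instrument. Per the submitters' processing notes the tools were Cuffdiff 2.2.1, Cufflinks, TopHat2, Trimmomatic and CASAVA 1.8.3, with no roles given. Genome build and gene models: not given in the sources used here. Expression values in the deposited table are read as the authors' FPKM, since the header says only expression value and Cuffdiff reports FPKM. They are 1 value per gene and strain, and the header does not say how the libraries were combined. The authors' deposited q-value is the only test; 2676 rows with a q of 1 (at most 7.50 FPKM) were taken as not tested.

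Here, log2 ratios used a pseudocount of 1, and members were grouped by KEGG product name. Bounds of the unadjusted p-value were q times its rank over 9234, and the same for the next lower q. The bounds and the scaling by equal sums without ribosomal protein genes were run on simulated data (Python 3.11.15, pandas 2.3.3). The simulated strains were first set to a common sum, unlike the deposited values. That run therefore checked the code and not whether the scaling suits these data. Alternatives were the pseudocount, a minimum mean of 5 FPKM, 3 scalings, the q threshold and the member rule. All members are named. Of the other lists, called genes are named or, with none, the 2 with the highest mean; 1 gene so chosen is not reported here. Members and lists were chosen with earlier results of these data known. Protein numbers (prefix Aspni7) were not paired with locus tags, so no coordinates or sequences are given.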

Additional observations from a re-analysis of the deposited data

How the results depend on the processing

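The count of 1 called member was the same under a q of at most 0.01 or 0.1, a minimum mean of 5 FPKM and both wider member rules. With 1 row per subunit, the more abundant one, 1187592 is left out by that choice, and 0 of 33 members were called. The called row 1187592 reached that minimum only through the deletion strain (14.4 FPKM, against 3.57 in the control). Passing the minimum is therefore no support for the call. The median of all members and of each group stayed within 1.5 times of the reported value under both other pseudocounts, the minimum mean, 1 row per subunit and a median of all tested genes set to 0. Under the wider member rules, run for all members only, the median did too. The count above the control did so under the minimum mean, the wider member rules, equal sums and a median of all tested genes set to 0. With equal sums, the median of the activator and maturation factor went from 0.15 to 0.0830 on the log2 scale. With equal sums without ribosomal protein genes, 23 members in place of 35 lay above the control. The medians then were 0.0588 for all members, 0.0430 for the alpha subunits, 0.11 for the beta subunits, 0.0900 for the RPT ATPases, 0.0435 for the RPN subunits and -0.0332 for the activator and maturation factor, which changed sign. Of the single members, 34 moved by over 1.5 times or changed sign under that scaling, 13 under equal sums and 2 with the median set to 0; the call of 1187592 kept its direction under each. These shifts follow from the scalings' construction, as 1 factor is applied to all values of a strain. No paired analysis was possible because values of single libraries are not in the table analysed, and for the same reason no replicate could be left out. Depth is unknown, so its limit on the 3 members of low level could not be given.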
